A study of Mus musculus with 2 samples.

Results

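Uroplakin-dominant urothelial cells were cells of the bladder lining in which the messages of 3 uroplakins outnumbered those of the keratin Krt5. They were selected on their own counts of uroplakins, Krt5, Krt15 and genes of other cell types, in 2 single-cell RNA libraries. A barcode needed at least 1000 UMIs (unique molecular identifiers, 1 per captured RNA molecule), at least 500 genes and under 15% mitochondrial UMIs, and had to be in 1 library only or be more than 10 times deeper than its copy in the other. Upk1a, Upk2, Upk3a, Krt5 and Krt15 together had to reach 10 of every 10000 UMIs. The 4 stromal genes Col1a1, Col1a2, Col3a1 and Dcn had to stay under 10, and the mesothelial genes Msln and Lrrn4 under 5, of every 10000. The UMIs of Upk1a, Upk2 and Upk3a together had to exceed those of Krt5. The rule found 2040 of 16334 barcodes, 449 of them Tom+ and 1591 Tom-.

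Both libraries came from the bladder of 1 male mouse aged 25 months with the genotype p16-CreERT2/R26-LSL-tdTomato. Cells that used the p16 promoter while tamoxifen was present were marked for good by the red reporter tdTomato, expressed from the Rosa26 locus. Tamoxifen was given by intraperitoneal injection on 5 days in a row and the bladder was taken 2 weeks later, so the mark need not reflect p16 at harvest. The tissue was digested with collagenase, and the Tom+ group held sorted CD45-/DAPI-/Tomato+ cells and the Tom- group CD45-/DAPI-/Tomato- cells. Both groups therefore shared the mouse, the 2 alleles, the drug, and the removal of leukocytes (CD45) and dead cells (DAPI). Each group was 1 library. Differences between them have no replicate check and no test, and genes are described by the size of their ratio. The 95% intervals below are exact and cover counting error only.

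The urothelium is layered, with basal cells that carry Krt5 and Trp63 on the basement membrane, intermediate cells above them and large umbrella cells at the lumen. Uroplakins are membrane proteins that assemble into rigid plaques on the face of umbrella cells and make the bladder wall tight to urine. The tetraspanins Upk1a and Upk1b leave the endoplasmic reticulum as pairs, Upk1a with Upk2 and Upk1b with Upk3a. Krt20 is a keratin of fully differentiated umbrella cells. The p16 protein, encoded by Cdkn2a, blocks the kinases that start the cell cycle and is used as a mark of senescent cells.

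The label of these cells as superficial was only in part met by their markers. In CPM (a gene's UMIs scaled to a fixed total of 1000000 UMIs of the class), Upk1a stood at 1136 in Tom+ and 1157 in Tom- cells, Upk3a at 986 and 984, and Upk2 at 137 in each. Fmo5, a flavin-dependent monooxygenase, stood at 1220 and 1217 CPM, and Ivl, a protein of the cornified envelope, at 275 and 252 CPM. Krt20 was low at 28.1 and 23.3 CPM, with a UMI in 23.8% of Tom+ and 24.1% of Tom- cells. The basal genes Krt5 (678 and 652 CPM) and Trp63 (212 and 221 CPM) were both present. Krt15, a further keratin of the selection, stood at 2725 and 2830 CPM. The cells are therefore named by the rule and not as umbrella cells.

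**Figure D1:**
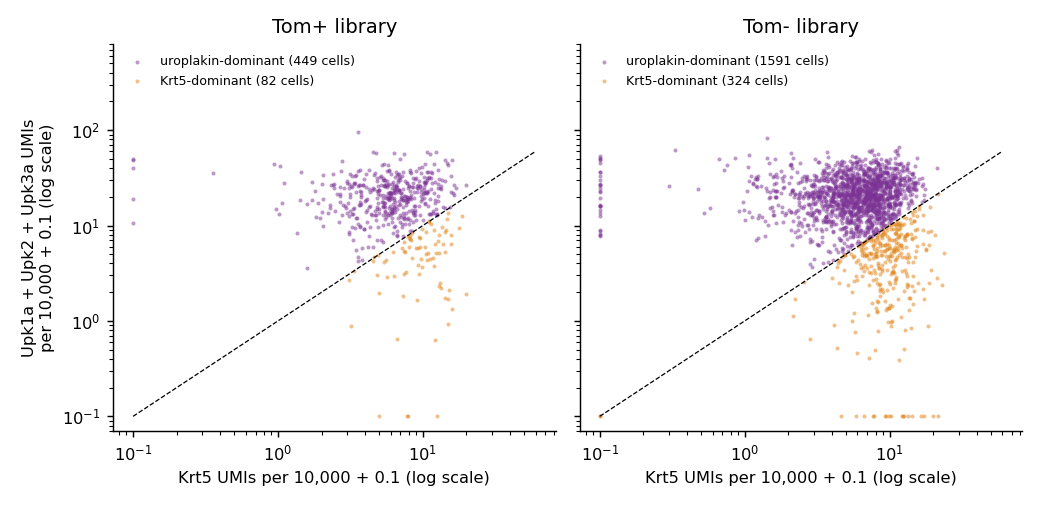
Uroplakin UMIs (Upk1a, Upk2 and Upk3a, vertical axis) against Krt5 UMIs (horizontal axis), both per 10000 UMIs of a cell, for each urothelial barcode of the Tom+ (left) and Tom- (right) library. The rule's line runs through a continuous cloud: 449 Tom+ and 1591 Tom- cells lie above it, and 82 Tom+ and 324 Tom- cells on or below it.

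The uroplakin and Krt5 levels formed a continuum with no gap at the line. The share of uroplakin UMIs among uroplakin and Krt5 UMIs had a median of 76.4% in Tom+ and 77.5% in Tom- cells. In the Tom+ library, the 20 cells just inside (a share of 50 to 55%) had Upk3a at 291 CPM, Krt5 at 1042 CPM and Fmo5 at 738 CPM. The 19 Tom+ cells just outside (45 to 50%) had 112, 790 and 308 CPM. In the Tom- library, 63 cells just inside had 220 CPM of Upk3a, 863 CPM of Krt5 and 646 CPM of Fmo5, and 67 cells just outside had 175, 916 and 441 CPM. Few cells lay near the lower bound on all urothelial UMIs: 1 Tom+ and 4 Tom- cells had 10 to 12 per 10000, and 0 and 6 other barcodes had 8 to 10.

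The cells made up 25.8% (23.7 to 27.9) of the 1741 Tom+ barcodes and 16% (15.3 to 16.8) of the 9919 Tom- barcodes that passed the filters on cells. The sort on tdTomato sets these shares, and they are not the make-up of the bladder. The whole libraries held 34455896 UMIs in 2783 Tom+ barcodes and 197232860 UMIs in 13551 Tom- barcodes. The uroplakin-dominant cells were deep in both, with a median of 38245 UMIs and 5399 genes in Tom+ and 38796 UMIs and 5657 genes in Tom- cells, against 8876 and 12020.5 UMIs in the other passing cells. Their summed counts were 17061763 and 63020687 UMIs, so that 3 counts amount to 0.176 CPM in Tom+ against 0.0476 CPM in Tom- cells. The libraries shared 966 barcodes; 69 Tom+ cells (15.4% of them) and 1 Tom- cell of the class carried such a barcode. Scrublet called 1 Tom+ and 63 Tom- cells of the class doublets, and these were kept.

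The first comparison, Tom+ with Tom- cells, asks how urothelial cells marked through the p16 promoter differ from unmarked ones. tdTomato itself stood at 1005 CPM (990 to 1020) in Tom+ cells and at 44.7 CPM (43.0 to 46.4) in Tom- cells, a ratio of 22.5 (21.6 to 23.4). The median cell held 38 tdTomato UMIs in Tom+ and 1 in Tom-. At least 1 UMI of tdTomato was detected in 98.9% of the Tom+ group and 72% of the Tom- group, and after thinning each cell to 5000 UMIs in 95.3% of 448 Tom+ and 20.1% of 1560 Tom- cells. In the other passing Tom- cells, which are shallower, 24.4% held a tdTomato UMI, at 27.6 CPM. The tails of the 2 groups met at the low end: 131 Tom- cells reached the 5th percentile of Tom+ cells, which was 5 UMIs, and 0 reached the Tom+ median.

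**Figure D2:**
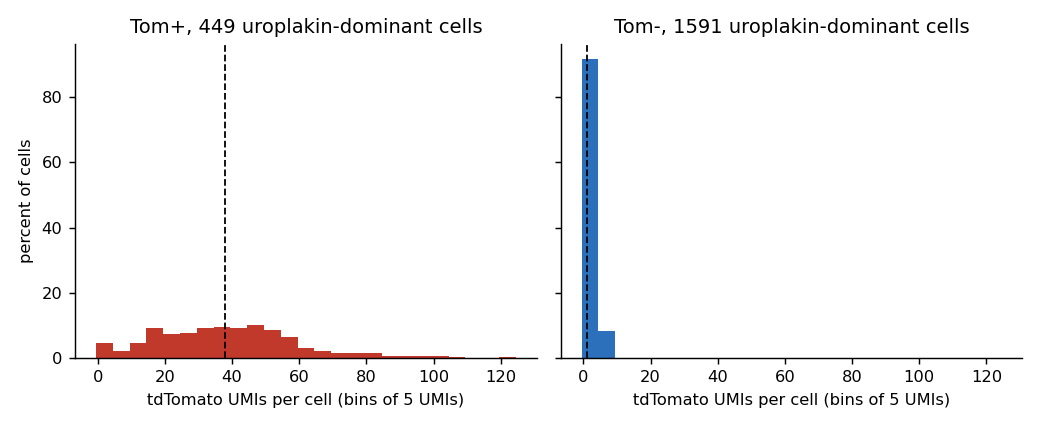
Percent of the uroplakin-dominant cells of each library (vertical axis) by tdTomato UMIs per cell in bins of 5 (horizontal axis). Tom+ and Tom- are shown apart, with the median of each library dashed. The medians are 38 UMIs in Tom+ and 1 UMI in Tom- cells, and 416 Tom+ cells against 1 Tom- cell hold more than 10.

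Cdkn2a RNA was at or near the detection limit in both groups. Its 3′ counts cannot separate the p16 and Arf transcripts, and it had 0 UMIs in the 449 Tom+ cells, which allows up to 0.176 CPM and up to 0.668% of cells with a UMI. In Tom- cells 13 UMIs fell in 12 cells, that is 0.206 CPM and 0.754% of cells. The other passing cells had 8.48 CPM in Tom+ against 6.35 CPM in Tom-, with a UMI in 3.06% and 2.94% of those cells. At this depth Cdkn2a RNA was thus not detected in the marked uroplakin-dominant cells, while the Krt5-dominant cells held 1 UMI in Tom+ and 2 UMIs in Tom-. Cdkn1a, which encodes the cell-cycle inhibitor p21, stood at 204 CPM in Tom+ against 212 CPM in Tom- cells.

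Apart from the reporter, the Tom+ and Tom- cells had nearly the same RNA profile. Measured genes had 10 CPM or more in either library and 20 UMIs or more in all, and ratios past a size were taken after adding 1 CPM. Of 7581 measured genes, 3 were at least 1.5 times higher in Tom+ than in Tom- cells (0.0396% of those measured) and 36 at least 1.5 times lower (0.475%). Among the 2378 genes with at least 50 CPM in 1 library, 1 was higher and 7 were lower by that size, and their log2 ratios ran from -0.14 at the 5th percentile to 0.10 at the 95th percentile. The same size was passed by 63 higher and 226 lower of 8200 genes (0.768% and 2.76%) in Krt5-dominant cells and by 237 and 248 of 9377 (2.53% and 2.64%) in the other passing cells. The Krt5-dominant sums were smaller, at 2376167 UMIs in Tom+ and 10691659 UMIs in Tom- cells, so their ratios carry more counting error. Among genes with at least 50 CPM in 1 library, 7 and 15 of 2714 (0.258% and 0.553%) passed it in Krt5-dominant cells. The shares were 0.0421% and 0.294% in uroplakin-dominant cells and 1.94% and 2.65% in the other passing cells. The other passing cells held markers of several cell types, at sums that partly differed between the libraries. Their erythroid sum was 44.9 CPM for Tom+ but 12386 CPM for Tom-. Seminal vesicle and prostate markers went the opposite way (2749 against 430 CPM), as did endothelial markers (1042 against 547 CPM). Fibroblast markers were close (36153 against 36791 CPM). How far this mix set the shares of the other passing cells was not tested.

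**Figure D3:**
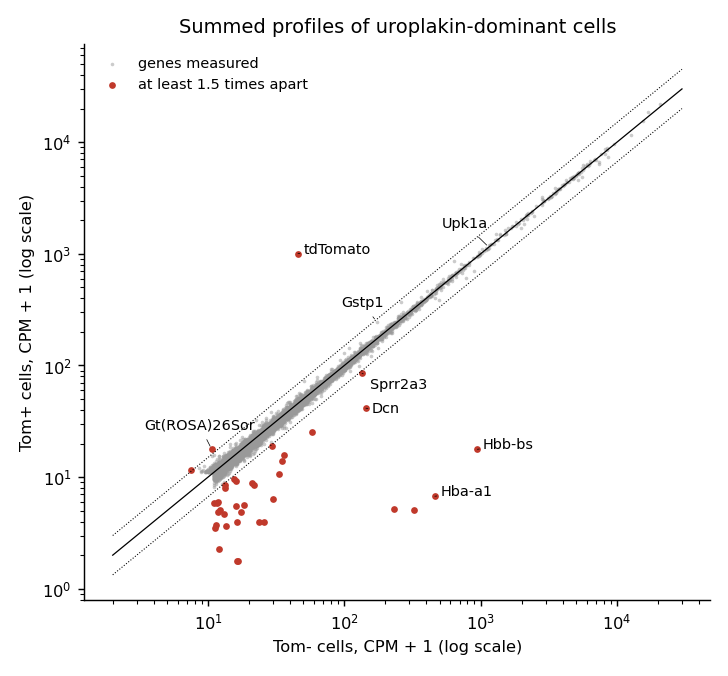
Level of each measured gene in Tom+ (vertical axis) and Tom- (horizontal axis) uroplakin-dominant cells, as CPM + 1 on log axes, with dotted lines at 1.5-fold. Of 7581 genes, 3 lie above the upper line, tdTomato farthest, and 36 below the lower line, the haemoglobins farthest.

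The 3 higher genes were tdTomato, Gt(ROSA)26Sor and Hist2h2ac. Gt(ROSA)26Sor is a non-coding transcript of Rosa26, where the reporter sits. Its level was 16.7 CPM in the Tom+ group and 9.66 CPM in the Tom- group, a ratio of 1.73 (1.496 to 1.99). The same direction was seen in Krt5-dominant cells (16.4 and 8.60 CPM) and in the other passing cells (22 and 8.71 CPM). Hist2h2ac, a replication-type histone gene with close copies, stood at 10.5 and 6.49 CPM.

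Most of the 36 lower genes had far higher levels in the remaining cells of the libraries. They included 4 haemoglobin genes and 26 genes whose level was under 5% of that in the remaining passing cells of the same library. The erythroid markers summed to 31.3 CPM in Tom+ against 1967 CPM in Tom- cells. In the Tom- class 8 cells led by haemoglobin genes (sub-cluster 6, described with the sub-clusters) held 88.2% of these UMIs, and the other 1583 cells stood at 234 CPM. The fibroblast markers summed to 453 and 770 CPM, with Dcn at 40.4 and 143 CPM and Col1a1 at 2.99 and 24.9 CPM. Most of both sums was Gsn, which stood at 385 and 490 CPM and lay within 1.5-fold. Endothelial markers summed to 42.1 and 70.0 CPM and smooth muscle and mural markers to 29.1 and 69.8 CPM. Without sub-clusters 5 and 6 these sums were 8.79 and 14.8 CPM for endothelial markers and 28.5 and 39.999 CPM for smooth muscle and mural markers. Leukocyte markers were near 0, at 0.645 and 2.05 CPM. RNA of red cells and stroma thus stood higher in the Tom- cells, and its part in the 36 lower genes was not tested. Without Scrublet doublets 21 genes were lower, and without barcodes found in both libraries 40 were. The other 6 lower genes were Tagln, Acta2, Ptprb, Ablim1, H2-Q7 and Sprr2a3.

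The urothelial program itself lay within 1.5-fold, as did 7542 of all 7581 measured genes. Upk1a, Upk2, Upk3a, Krt5 and Krt15 chose the cells in both libraries, so their likeness is in part set by the rule. All 6 uroplakins lay within that size, with Upk1b at 265 CPM in Tom+ against 269 CPM in Tom- cells, Upk3b at 118 and 114 CPM and Upk3bl at 14.8 and 16.5 CPM. So did all 10 measured keratins of 16 listed, among them Krt18 (1502 and 1522 CPM), Krt19 (1629 and 1509 CPM), Krt7 (1563 and 1527 CPM) and Krt8 (728 and 718 CPM). Regulators of urothelial fate were close as well: the zinc-finger factor Gata3 stood at 499 and 501 CPM, the nuclear receptor Pparg at 106 and 110 CPM, Klf5 at 350 and 366 CPM, Foxa1 at 128 and 143 CPM and Elf3 at 170 and 158 CPM. Shh, the hedgehog ligand that urothelium sends to the stroma, stood at 222 and 228 CPM.

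Gene groups tied to senescence and stress lay within 1.5-fold too, with single exceptions. Over all measured genes only 0.0396% were higher and 0.475% lower by that size, so lists this short would mostly hold none. None of 19 measured p53 targets and none of 21 measured cell-cycle inhibitors and senescence regulators passed that size in either direction. Among senescence-linked secretory factors, 19 were measured, 0 were higher and 1 was lower, Igfbp6, at 2.64 and 12.5 CPM. Among 42 measured immediate-early and dissociation genes 0 passed it, with a median log2 ratio of 0.03, Jun at 2239 and 2165 CPM and Fos at 3289 and 3225 CPM. The 12 measured interferon genes had a median of -0.13 and the 13 mitochondrially encoded genes a median of -0.17, with 0 past the size in each. The median mitochondrial share of a cell was 3.70% in Tom+ and 4.16% in Tom- cells. Of 12 measured antigen presentation genes, 1 was lower, the class I gene H2-Q7, which has close copies, at 7.56 and 12.4 CPM. In the innate defence list, 1 of 11 measured genes was lower, the complement factor C3, at 9.73 and 32.2 CPM. C3, Igfbp6 and Ifi27l2a were all among the 26 lower genes under 5% of their level in the remaining passing cells.

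Among genes that reached 50 CPM and were seen in 10% or more of cells, and apart from tdTomato, the 12 with the highest ratio reached no further than 1.46. Hist1h4d, a histone H4 gene with near-identical copies, had 72.1 CPM in Tom+ against 49.5 CPM in Tom- cells (ratio 1.46, 1.36 to 1.56). Gstp1, which conjugates glutathione to toxic compounds and has the close copy Gstp2, stood at 245 and 172 CPM (ratio 1.43, 1.38 to 1.48). Gstp1 was higher in the other classes of Tom+ cells as well, at 266 and 166 CPM in Krt5-dominant and 160 and 131 CPM in the other passing cells. Erh stood at 130 and 99 CPM and Polr2l, a subunit shared by RNA polymerases, at 78.3 and 61.6 CPM. Socs3, a feedback inhibitor of cytokine signalling, stood at 111 and 92.4 CPM and Nrarp, a target and inhibitor of Notch, at 72.6 and 62.3 CPM. The other 6 were Rnaset2b, Tsku, Ube2q2, Hist1h1c, Rnaset2a and C1qtnf4. Rnaset2a and Rnaset2b are near-identical and share reads.

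The 12 with the lowest ratio were led by Sprr2a3, a small proline-rich protein of the cornified envelope with near-identical copies, at 83.9 CPM in Tom+ against 134 CPM in Tom- cells (ratio 0.626, 0.592 to 0.663). Its RNA was uneven: 46.1% of Tom+ and 49.6% of Tom- cells held a UMI, and single cells held up to 79 and 279 UMIs. Neat1, a nuclear non-coding RNA of paraspeckles, stood at 695 and 900 CPM, a ratio of 0.772. Its log2 ratio was -0.37 over all cells, -0.57 without barcodes found in both libraries and -0.24 with sub-clusters weighted equally. Cyp2f2, a cytochrome P450, stood at 98.0 and 127 CPM, Crip1 at 122 and 155 CPM and Apoc1, a small apolipoprotein, at 142 and 176 CPM. Ifitm3, an interferon-induced membrane protein, stood at 88.9 and 109 CPM and Ly6a (Sca-1) at 55.7 and 66.4 CPM. The other 5 were Timp2, Dynll1, Tcf4, Ctsl and Baiap2.

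The second comparison set the uroplakin-dominant cells against the 406 Krt5-dominant cells of the same libraries (82 Tom+ and 324 Tom-), which met the same rule but had no more uroplakin than Krt5 UMIs. The classes were cut from these counts, so all values here are a description. Krt5-dominant cells had a lower median depth, at 27729.5 UMIs in Tom+ and 31510.0 UMIs in Tom- cells. In both libraries 52 of 7781 measured genes were at least 2 times higher in uroplakin-dominant cells (0.668%) and 120 at least 2 times lower (1.54%). Upk3a was 12.4 times higher in the Tom+ and 11.8 times higher in the Tom- library, at 986 CPM against 79.5 CPM and at 984 CPM against 83.4 CPM. Upk2 was 4.94 and 4.59 times higher, while Upk1a, at 1136 against 448 CPM and 1157 against 416 CPM, had a smaller ratio. Of the 6 uroplakins 4 were at least 2 times higher and 1, Upk3bl, was lower, at 14.8 against 58.1 CPM in Tom+ and 16.5 against 57.3 CPM in Tom- cells. With uroplakins required to exceed 2 times Krt5, 16 genes were higher and 57 lower. The cells that this cut left out then counted as Krt5-dominant, so both sides of the comparison changed. Krt15 differed little between the classes, at 2725 against 3324 CPM and 2830 against 3370 CPM.

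Because Upk3a had the widest gap between the classes of all uroplakins, the 250 bases before its start (chr15:85016891-85017140, GRCm38.p6, plus strand, RefSeq) are given 5′ to 3′. Capitals mark TTATCT, the reverse complement of AGATAA, a motif bound by GATA factors.
Upk3a: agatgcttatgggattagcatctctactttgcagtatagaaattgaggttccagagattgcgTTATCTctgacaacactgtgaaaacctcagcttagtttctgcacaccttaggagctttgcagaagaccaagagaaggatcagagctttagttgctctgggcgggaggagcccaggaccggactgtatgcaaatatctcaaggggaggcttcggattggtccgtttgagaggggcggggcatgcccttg
On either strand AGATAA occurs in 9.99% of 32851 RefSeq promoter windows of this length. TATAAA (in 12.4% of them), AGGTCA (14%), CCACCC (28.1%) and TGANTCA (6.75%) were searched on both strands too and are not in this Upk3a window. Upk3a occupies chr15:85017141-85022547 on the plus strand.

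Genes that were not used in the rule set the classes apart as well. Psca, a GPI-anchored surface protein, stood at 56.1 CPM in uroplakin-dominant against 4.21 CPM in Krt5-dominant Tom+ cells, and at 52.4 against 3.18 CPM in Tom- cells. Fmo5 was 4.26 and 4.15 times higher. Snx31, a sorting nexin that binds uroplakins on their way to degradation, stood at 123 against 27.4 CPM and 118 against 38.0 CPM. Akr1b3, aldose reductase, which makes the osmolyte sorbitol, stood at 998 against 336 CPM and 973 against 360 CPM. Hilpda, a lipid droplet protein, stood at 235 against 88.8 CPM and 218 against 84.7 CPM, and the cytochrome P450 Cyp4f15 at 52.3 against 12.6 CPM and 52.9 against 13.0 CPM. Zfp750, a factor of epidermal differentiation, stood at 38.5 against 5.05 CPM and 36.6 against 9.45 CPM, and Ivl was 2.19 and 2.22 times higher.

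Some genes of the Notch pathway, through which neighbouring cells set each other's fate, differed too. Of 12 measured Notch genes 2 were at least 2 times higher and 3 lower in uroplakin-dominant cells. The higher ones were the target Nrarp (72.6 against 14.7 CPM in Tom+, 62.3 against 12.9 CPM in Tom-) and the receptor Notch3 (21.7 against 2.53 CPM, 22.5 against 5.42 CPM). The lower ones were the ligands Jag2 (56.3 against 149 CPM, 61.2 against 140 CPM) and Dll1, and the glycosyltransferase Lfng. Notch3 is also on the list of smooth muscle and mural markers.

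Of 16 measured basal and intermediate genes 0 were at least 2 times higher in uroplakin-dominant cells and 4 were lower, Col17a1, Itga3, Bcam and Wnt10a. The hemidesmosome collagen Col17a1 stood at 13.6 against 74.9 CPM in Tom+ and 14.5 against 69.7 CPM in Tom- cells. Itga3, a laminin receptor subunit, stood at 11 against 46.7 CPM and 12.2 against 46.9 CPM. Outside that list Thbs1, a matrix glycoprotein, stood at 47.6 against 158 CPM and 50.1 against 154 CPM. The alarmin Il33 stood at 16.7 against 64.8 CPM and 18.2 against 52.3 CPM, and Ly6a at 55.7 against 281 CPM and 66.4 against 297 CPM. Endothelial markers were lower too, 6 of 7 measured, and summed to 42.1 against 133 CPM in Tom+ and 70.0 against 212 CPM in Tom- cells; their part in the lower genes was not tested.

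Within the uroplakin-dominant cells, clustering of both libraries together without tdTomato, Cdkn2a and mitochondrial genes gave 7 sub-clusters, which are described by their leading genes and given no name. Each of the first 5 held at least 31 cells of each library. Sub-cluster 0 held 136 Tom+ (30.3%) and 382 Tom- cells (24.0%) and was led, by small margins of at most 0.89 on the log2 scale over the mean of the other sub-clusters, by Sprr2a3, Krt15, Nrarp and Ivl. Sub-cluster 1 (94 and 413 cells) was led by Sprr2a3 and Emp1, and had Hilpda at 407 and 352 CPM and the stress factor Atf3 at 912 and 819 CPM. Sub-cluster 2 (100 and 352 cells) was led by the gasdermin Gsdmc2 (389 and 399 CPM), Gsdmc3 and Krt4 (314 and 334 CPM), and had the lower Upk3a level of 451 and 406 CPM. Sub-cluster 3 (78 and 309 cells) had Gm42418, which overlaps ribosomal RNA, at 15640 and 18675 CPM and low Atf3 at 29.6 and 25.7 CPM. Sub-cluster 4 (31 and 69 cells, 6.90% and 4.34%) was led by Krt20 (297 and 334 CPM), Hoxb9 (99 and 87.1 CPM), Rgs5, Bex1 and Socs3. Sprr2a3 stood at 80.7 CPM in Tom+ against 159 CPM in Tom- cells of sub-cluster 0, at 115 against 186 CPM in sub-cluster 1, at 107 against 93.7 CPM in sub-cluster 2 and at 52.1 against 121 CPM in sub-cluster 3.

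The last 2 sub-clusters carried RNA of other types. Sub-cluster 5 (10 Tom+ and 58 Tom- cells) was led by endothelial genes, with Pecam1 at 282 and 197 CPM, and 49 of its Tom- cells were Scrublet doublets. Sub-cluster 6 (0 and 8 cells) was led by haemoglobin genes.

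**Figure D4:**
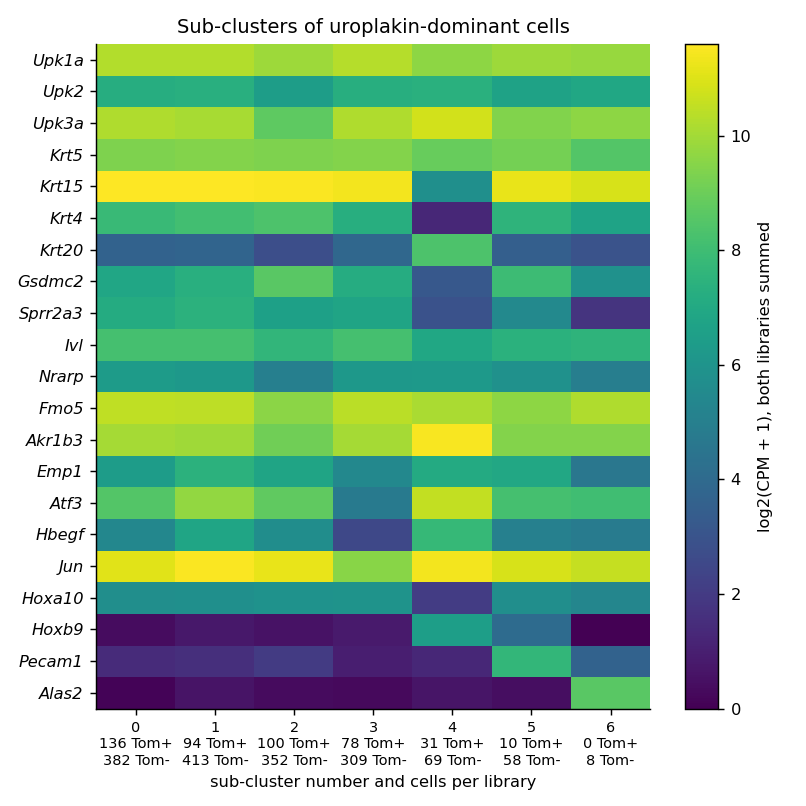
Level of 21 genes (down the map) in the 7 sub-clusters (across it) of uroplakin-dominant cells, both libraries summed, as log2(CPM + 1) by colour. Sub-cluster 4 joins high Krt20 and Hoxb9 with low Krt15, and sub-clusters 5 and 6 hold the signals of Pecam1 and of the erythroid gene Alas2.

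Genes with a wide spread between single cells included leading genes of the sub-clusters. The spread is given as the coefficient of variation beyond counting error, over 2246 genes, with a median of 0.273 in Tom+ and 0.257 in Tom- cells. It was 2.47 and 3.49 for Sprr2a3, 2.25 and 2.60 for Psca, 2.15 and 2.18 for Hbegf, 1.44 and 1.26 for Gsdmc2 and 1.16 and 1.18 for Krt4. Upk3a, with 0.72 and 0.76, varied more than Upk1a, with 0.48 and 0.31, and both varied more than Krt7, with 0.26 and 0.28. The order of these 8 genes, picked from across the ranking, was the same in both libraries. Genes with closer values could change places, as Apoc1 (1.62 and 1.56) and Socs3 (1.54 and 1.70) did.

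A small set of cells had little Krt15. The split was chosen after its values were seen: cells with under 3 Krt15 UMIs per 10000 (Krt15-low) were set against all others (Krt15-high). Krt15-low cells numbered 37 in Tom+ (8.24%, 5.87 to 11.2) and 95 in Tom- (5.97%, 4.86 to 7.25), and 98 of these 132 cells were in sub-cluster 4. Few cells lay near the line, with 3 Tom+ and 13 Tom- cells at 1 to 3 and 5 and 9 cells at 3 to 5 Krt15 UMIs per 10000. Median depth was similar, at 36505 UMIs in Krt15-low against 38605.5 UMIs in Krt15-high Tom+ cells and 34574 against 38981.5 UMIs in Tom- cells. None of the Krt15-low cells was a Scrublet doublet, against 1 Tom+ and 63 Tom- Krt15-high cells. Krt15 itself stood at 32.5 against 2940 CPM in Tom+ and 46.3 against 2969 CPM in Tom- cells, beside 133 CPM and 341 CPM in the other passing cells of these libraries. In both libraries 64 of 7503 measured genes were at least 2 times higher in Krt15-low cells (0.853%) and 37 at least 2 times lower (0.493%).

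Krt15-low cells had high levels of Krt20, the umbrella cell keratin. It stood at 256 CPM in Krt15-low against 10.0 CPM in Krt15-high Tom+ cells and at 276 against 10.7 CPM in Tom- cells, and it had a UMI in 83.8% against 18.4% of Tom+ cells and in 76 of 95 against 20.5% of Tom- cells. Upk3a stood at 1525 against 943 CPM and 1943 against 936 CPM, while Upk1a was lower, at 878 against 1156 CPM and 965 against 1166 CPM. Upk2 stood at 178 against 134 CPM and 173 against 136 CPM. Of 10 measured keratins 2 were at least 2 times higher, Krt20 and Krt23, and 2 lower, Krt15 and Krt4. Krt18 (2064 against 1457 CPM, 2227 against 1487 CPM) and Krt19 (2490 against 1560 CPM, 2314 against 1469 CPM) did not reach that size. Krt5 stood at 535 against 689 CPM and 443 against 662 CPM. Krt15 counts toward the urothelial minimum of the rule, so Krt15-low cells had to reach it mainly on uroplakins and Krt5. The levels of Upk1a, Upk2, Upk3a and Krt5 in this split are thus in part set by the selection. tdTomato was alike, at 1094 against 998 CPM in Tom+ and 49.3 against 44.5 CPM in Tom- cells.

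Krt20 lies at chr11:99428403-99438150 on the minus strand and Krt15 at chr11:100131758-100135928 on the minus strand. The 250 bases before the RefSeq start of Krt20 (chr11:99438154-99438403, GRCm38.p6, minus strand) are given 5′ to 3′ because this keratin goes with the split. Capitals mark TTATCT, the reverse complement of AGATAA. They also mark CCACCC. The motif TATAAA is in capitals together with a match to AGGTCA that directly follows it.
Krt20: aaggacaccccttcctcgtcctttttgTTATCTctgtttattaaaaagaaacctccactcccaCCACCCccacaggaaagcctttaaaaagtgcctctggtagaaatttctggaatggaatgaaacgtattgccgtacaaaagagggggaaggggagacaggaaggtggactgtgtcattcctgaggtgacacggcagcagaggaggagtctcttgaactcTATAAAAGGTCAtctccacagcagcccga
In this Krt20 window TATAAA begins 29 bases and AGGTCA 23 bases before the start, TTATCT 223 and CCACCC 187 bases before it, and TGANTCA is not in it. The shares of all windows given for Upk3a apply, and a match is no proof of a bound site.

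The gene with the largest log2 ratio of Krt15-low over Krt15-high cells was the homeobox factor Hoxb9 (chr11:96271457-96276595, plus strand). It stood at 83.3 CPM in Krt15-low against 1.39 CPM in Krt15-high Tom+ cells, a ratio of 59.8 (37.5 to 99.6). In Tom- cells it stood at 69.7 against 1.08 CPM, a ratio of 64.3 (48.5 to 86.3). A Hoxb9 UMI was found in 75.7% against 2.43% of Tom+ and 68.4% against 2.94% of Tom- cells. The other passing cells, at lower depth, had 9.58 CPM in Tom+ against 4.89 CPM in Tom-, with a UMI in 6.36% and 4.32% of cells. Without barcodes found in both libraries, which left 26 Krt15-low Tom+ cells, Hoxb9 stood at 80.8 against 0.719 CPM in that library.

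Genes of the HoxA and HoxB clusters, which give cells their position along the body axis, differed in opposite directions, and the Hox genes were looked at because Hoxb9 had led the list. On chromosome 6 all 5 measured HoxA genes were at least 2 times lower in Krt15-low cells. Hoxa9 stood at 8.73 against 52.1 CPM in Tom+ and 10.0 against 53.7 CPM in Tom- cells. Hoxa10 (chr6:52231197-52240854, minus strand) stood at 7.94 against 50.9 CPM, a ratio of 0.156 (0.0745 to 0.288), and at 11.7 against 57.0 CPM, a ratio of 0.205 (0.142 to 0.285). Hoxa7, Hoxa11 and Hoxa13, the last a gene of the urogenital end of the axis, went the same way, with Hoxa13 at 3.97 against 23.4 CPM and 6.33 against 24.6 CPM. All HoxA genes summed to 29.4 against 195 CPM and 38.7 against 211 CPM.

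On chromosome 11 some HoxB genes were higher. Of 8 measured, 3 were at least 2 times higher and 0 lower: Hoxb9, Hoxb8 (135 against 46.8 CPM in Tom+, 132 against 43.8 CPM in Tom-) and Hoxb6 (46.8 against 12.1 CPM, 41.7 against 12.6 CPM). The HoxB sum was 446 against 182 CPM and 421 against 181 CPM. The HoxD sum was 70.6 against 36.1 CPM and 64.0 against 38.7 CPM, and neither of its 2 measured genes passed the size in both libraries. HoxC genes were near 0 in Krt15-high cells, at a sum of 0.253 and 0.80 CPM. In Krt15-low cells their sum was 0.794 and 4.00 CPM, from only 1 UMI in Tom+ and 12 UMIs in Tom- cells. Pax2, a factor of the kidney and its ducts, stood at 14.3 against 0.127 CPM and 20.3 against 0.0833 CPM.

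**Figure D5:**
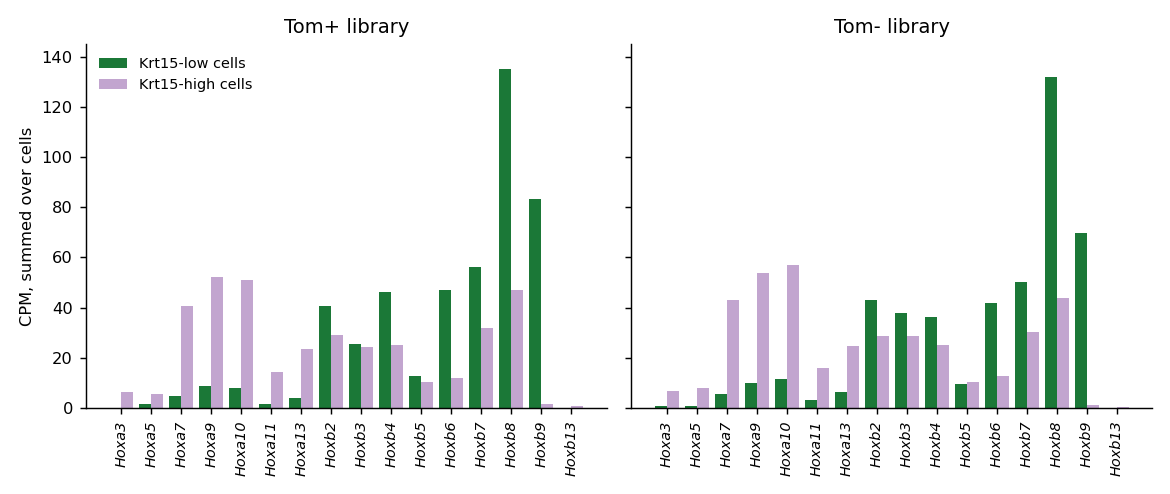
CPM (vertical axis, bars) of 7 HoxA and 9 HoxB genes in Krt15-low (left of each pair) and Krt15-high uroplakin-dominant cells, Tom+ library left and Tom- library right. HoxA genes are lower and Hoxb6, Hoxb8 and Hoxb9 higher in Krt15-low cells of both libraries.

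Among the other genes at least 2 times higher in Krt15-low cells was Akr1b3, aldose reductase. It stood at 2636 against 868 CPM in Tom+ and 2783 against 883 CPM in Tom- cells. Psca stood at 182 against 46.1 CPM and 144 against 47.8 CPM, and the tight-junction claudin Cldn23 at 72.2 against 22.7 CPM and 59.3 against 23 CPM. Hbegf, a ligand of the EGF receptor, stood at 168 against 56.2 CPM and 177 against 56.9 CPM. Krt23 stood at 41.3 against 10.8 CPM and 45.7 against 12.1 CPM, and the cytokine Il18 at 25.4 against 4.18 CPM and 30.3 against 4.95 CPM. Id1, an inhibitor of helix-loop-helix factors, stood at 2443 against 920 CPM and 1992 against 925 CPM. Rgs5, better known from pericytes, stood at 40.5 against 1.46 CPM and 81.3 against 2.75 CPM, while the rest of the list of smooth muscle and mural markers summed to 22.2 against 24.9 CPM and 35.7 against 64.7 CPM.

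Besides Krt15, the lower genes described here with the lowest ratios were Cyp2f2, Krt4 and Gsdmc2. Cyp2f2 stood at 1.59 against 106 CPM in Tom+ and 3.33 against 133 CPM in Tom- cells, Krt4 at 3.17 against 240 CPM and 8.67 against 256 CPM, and Gsdmc2 at 4.76 against 195 CPM and 14.7 against 209 CPM. Nrn1, a GPI-anchored protein best known from neurons, stood at 34.9 against 268 CPM and 45.7 against 279 CPM. The factor Sox2 stood at 2.38 against 19.6 CPM and 3.00 against 17.6 CPM. Col17a1, Il33, Trf and Fgfr2 were lower as well. Aqp1 was lower too, but it was also the leading gene of the endothelial-led sub-cluster 5. It stood there at 296 CPM, against a mean of 3.35 CPM over the other sub-clusters. The part of sub-cluster 5 in the Aqp1 difference was not tested.

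Some other signals moved with the split. Of 43 measured immediate-early and dissociation genes 6 were at least 2 times higher and 0 lower in Krt15-low cells, Atf3 (1443 against 451 CPM in Tom+, 1159 against 447 CPM in Tom-), Socs3 (444 against 84.0 CPM, 351 against 79.5 CPM), Dusp1, Gadd45b, Gadd45g and Klf2. The list's median log2 ratio was 0.50 in Tom+ and 0.32 in Tom-, beside 0.07 and 0.00 over all measured genes. Its part in the result was not tested. Fibroblast markers, mostly Gsn in the class as a whole, summed to 551 against 445 CPM and 867 against 765 CPM. Endothelial markers summed to 3.97 against 45.2 CPM and 17.0 against 72.7 CPM. Without sub-clusters 5 and 6 the endothelial sums were 3.97 against 9.18 CPM and 10.7 against 15.0 CPM. Erythroid markers summed to 27.0 against 31.6 CPM in Tom+ and, without sub-cluster 6, to 235 against 234 CPM in Tom- cells (2054 CPM in Krt15-high Tom- cells with it). Seminal vesicle and prostate markers summed to 41.3 against 40.5 CPM and 192 against 41.1 CPM, and 78.0% of the Krt15-low Tom- UMIs of that list came from 1 cell, without which the sum was 42.3 CPM.

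The split was also applied to cells it had not been drawn from. Of the 406 Krt5-dominant cells, 24 were Krt15-low (4 Tom+ and 20 Tom-) and 382 Krt15-high. The levels and ratios in them are over both libraries summed, and not in each library as for the uroplakin-dominant cells. Hoxb9 stood at 70.4 against 2.58 CPM, with a UMI in 2 of 4 Tom+ and 15 of 20 Tom- Krt15-low cells. HoxA genes had 0 UMIs in the Krt15-low cells, which allows a sum of up to 4.59 CPM, against 235 CPM in the Krt15-high cells. HoxB genes summed to 373 against 180 CPM, and Krt20 stood at 124 against 2.66 CPM. Of the 94 genes past 2-fold in uroplakin-dominant cells that were measured there, 92 had the same direction: 57 of 58 higher and 35 of 36 lower genes, with 37 and 30 of them past 2-fold. The same-direction share over all measured genes was not computed, so these counts have no background beside them and are a description only. Psca went the other way there, at 1.53 against 3.46 CPM, from 1 and 43 UMIs. These cells share the mouse and both libraries with the uroplakin-dominant cells.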

How the data were processed

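The deposited files held 1 matrix of raw UMI counts per library over 31054 features, tdTomato included, with barcodes already selected and no normalization by the authors beyond counting. Cell Ranger 7.0.0 and mm10 are named in the submitters' processing notes, while the matrix headers give software version 3.0.2; the 3′ chemistry counts transcript ends. Members and gene lists were chosen with earlier results of these data known. The 38 gene lists were used for counts and sums only.

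For each class and library, UMIs of all cells were added up and expressed as CPM. Log2 ratios were taken after adding 1 CPM, and printed ratios are without it, with 95% intervals from the exact conditional binomial distribution. Intervals of sums are exact Poisson and those of shares Clopper-Pearson. Where no UMI was found, the limit is that of 3 counts. Scrublet was applied to each library (expected doublets 0.8% per 1000 cells), and its calls were left out only as an alternative. Sub-clusters came from Leiden clustering (1500 variable genes, 20 components, 15 neighbours, resolution 0.5). Tom+ over Tom-, the 12 highest and 12 lowest genes were named, leaving out mitochondrial, ribosomal protein and haemoglobin genes, unnamed clones and predicted genes, markers of other cells, genes under 5% of their level in the other passing cells, and symbols with more than 1 identifier. For the 2-fold comparisons, genes were measured if these minima were met in each library (10 CPM in either set of cells and 20 UMIs in both), and leading genes and list members were named. Tools were Python 3.11.15, scanpy 1.11.5, leidenalg 0.10.2, scikit-learn 1.9.0, scipy 1.17.1, numpy 2.4.6, pandas 2.3.3, matplotlib 3.10.9 and edgeR 4.0.16 for TMM factors. On simulated counts for Tom+ over Tom- (7561 genes), 94.7% of intervals held the true ratio and 0 unchanged genes passed 1.5-fold. These counts were Poisson draws from the summed counts, with no spread between cells, libraries or mice. They check the calculation only and not how far the intervals hold for the real cells. Gene coordinates are from GENCODE on GRCm38. Alternatives covered cell filters, shared barcodes, doublets, thresholds of the rule, weighting, thinning, scaling, pseudocount and filters on low values.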

Additional observations from a re-analysis of the deposited data

Results flagged for a closer look

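Sprr2a3 had opposite differences in the urothelial classes. Its log2 ratio of Tom+ over Tom- was -0.67 in uroplakin-dominant cells (83.9 and 134 CPM) and 0.70 in Krt5-dominant cells (50.9 and 31.0 CPM, ratio 1.64, 1.32 to 2.03). The difference between the classes was not tested. In Krt5-dominant cells it rests on 121 Tom+ UMIs in 11 cells and 331 Tom- UMIs in 67 cells, of which single cells held 72 and 123. In uroplakin-dominant cells 1431 Tom+ UMIs fell in 207 cells and 8438 Tom- UMIs in 789 cells. Near-identical Sprr2a copies share reads, so the counts belong to the family as much as to this gene.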

How the results depend on the processing

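No paired analysis was possible because each group was 1 library, and for the same reason no replicate was left out. The limits are the single mouse, the sort on tdTomato, and a rule that divides a continuum of cells. The Tom+ share of uroplakin-dominant cells was 20.6% with uroplakins over 2 times Krt5 and 23.7% without Krt15-low cells. The Tom- share was 17.3% under a stricter cell filter, 15.2% with all shared barcodes kept, 12.7% with uroplakins over 2 times Krt5 and 15.1% without Krt15-low cells. The log2 ratio of tdTomato, 4.46, was 4.22 with equal weight per cell and 4.35 after thinning to 5000 UMIs. That of Cdkn2a, at 0 counts in Tom+ and so set by the pseudocount, was -0.27 as computed, -0.27 under the stricter cell filter, without shared barcodes and with a urothelial threshold of 20, -0.28 without Krt15-low cells and with equal weight per cell, -0.29 with uroplakins over 2 times Krt5 and -0.33 after thinning.

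Genes at least 1.5 times higher and lower in Tom+ cells, 3 and 36, numbered 5 and 55 with equal weight per cell, 85 and 133 after thinning, 15 and 338 with no filter on low values, and 1 and 7 at 50 CPM or more. With a pseudocount of 5 CPM 1 was higher, and without doublets 21 were lower. Against Krt5-dominant cells, 52 and 120 genes became 16 and 57 with uroplakins over 2 times Krt5 and 22 and 35 at 50 CPM or more, and 75 were lower with a pseudocount of 5 CPM. With the cut at 2 times Krt5, the cells it left out counted as Krt5-dominant. The causes were not tested, apart from the fewer genes tested or the fewer counts that thinning and filters make by construction. Counts of the Krt15 split stayed at 55 to 74 higher and 29 to 47 lower over its 5 alternatives, which were chosen after seeing the data, as was leaving out Krt15-low cells or sub-clusters 5 and 6. For 273 single genes over 12 settings, 2922 of 3276 values stayed within the interval, 354 moved and 0 of the called ones reversed.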
